A study of Rattus norvegicus with 8 samples.

Results

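The 8 genes described here are Gclc, Gclm, Gpx2, Gpx3, Txnrd1, Srxn1, Hmox1 and Nqo1, which make up a short list of glutathione, thioredoxin, heme and quinone detoxification genes. They were chosen by gene symbol, with earlier results of these data known. Counts of them beside shares over all genes are therefore descriptive and not independent support. Each is measured by 1 probe set, and 8 of 8 were found among the 18166 genes of the array that carry 1 symbol. The tissue was kidney of male Wistar rats, 10 weeks old, and all 8 arrays carry the same treatment, ethylene glycol every day with vitamin D every second day for 1 week. The arrays fall into 2 groups by tissue region, 4 of medulla and 4 of cortex, and no untreated group is part of the comparison. Values are log2 of the intensity that the authors deposited after RMA, a background correction and normalization across arrays, and the array medians lay between 5.09 and 5.12 log2 units. The labels name no separate animals and tie no medulla array to a cortex array, so the replicate numbers, given in label order, only name arrays. Every p-value below reflects variation among single arrays that may be technical in origin.

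NRF2, the product of Nfe2l2, is a transcription factor that is held in the cytoplasm and marked for degradation by KEAP1. Electrophiles and oxidants release it, and with a small MAF partner it binds the antioxidant response element of genes that make glutathione, reduce peroxides and thioredoxin, break down heme and reduce quinones. In kidney the pathway is known for its role in the response of the tubule to oxidative and crystal injury. Gclc and Gclm encode the catalytic and modifier subunits of glutamate-cysteine ligase, the rate-limiting enzyme of glutathione synthesis. Gpx2 and Gpx3 encode selenium-dependent glutathione peroxidases, of epithelia and of plasma, and the kidney proximal tubule is the main source of the plasma enzyme. Gpx3 is listed with the others as an antioxidant gene and not as a classical NRF2 target.

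Of the promoter sequences of the 8 genes, the 3 that hold the core of the antioxidant response element are shown. They were picked by the motif and not by the array values. They are the 250 bases before an annotated RefSeq start, 5′ to 3′ on the gene's own strand in assembly GRCr8, with the match in capitals. The motif searched was TGACNNNGC on both strands, over the whole 300-base window of 250 bases before the start and 50 after it, and each match lies on the strand opposite to the gene, so it reads GCNNNGTCA in print. The Gpx2 stretch is chr6:101230034-101230283 (minus strand), the Gclm stretch is chr2:213031885-213032134 (plus strand) and the Txnrd1 stretch, at the second of its 2 annotated starts, is chr7:22755905-22756154 (minus strand).
Gpx2: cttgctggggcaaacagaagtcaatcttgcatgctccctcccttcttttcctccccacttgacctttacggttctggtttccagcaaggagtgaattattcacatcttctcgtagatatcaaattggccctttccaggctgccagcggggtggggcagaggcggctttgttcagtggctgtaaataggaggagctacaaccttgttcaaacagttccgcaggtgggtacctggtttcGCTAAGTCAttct
Gclm: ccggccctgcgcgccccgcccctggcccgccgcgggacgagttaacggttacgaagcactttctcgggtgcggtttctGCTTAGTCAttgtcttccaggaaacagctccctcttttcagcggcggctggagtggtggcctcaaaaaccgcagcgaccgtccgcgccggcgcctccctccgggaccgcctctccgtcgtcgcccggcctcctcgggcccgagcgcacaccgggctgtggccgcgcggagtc
Txnrd1: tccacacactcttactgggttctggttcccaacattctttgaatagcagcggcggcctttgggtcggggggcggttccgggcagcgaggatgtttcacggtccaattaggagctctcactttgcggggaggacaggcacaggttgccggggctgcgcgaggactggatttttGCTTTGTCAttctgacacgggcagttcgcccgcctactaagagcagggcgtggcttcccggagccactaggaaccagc
The match begins 13 bases before the start in Gpx2, 172 bases before it in Gclm and 78 bases before it in Txnrd1. RefSeq promoters were found for 7 of the 8 genes, and 3 of the 7 held the motif, against 13.1% of all 27457 genes with a promoter. The windows of Gclc, Gpx3, Nqo1 and Srxn1 and the other Txnrd1 window did not hold these letters, and Hmox1 had no entry. Both Txnrd1 windows and most of the Gclc window lie inside the gene bounds given below. For these 2 genes the stretch before the outermost start was therefore not searched in full. A match is a description of these letters and not a measured binding site.

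The replicate 4 arrays account for most of the genes with a wide range. A range of at least 2-fold was reached by 691 genes between the medulla arrays and by 170 without medulla replicate 4, and by 654 between the cortex arrays and 145 without cortex replicate 4. For this reason the 8 genes are given below array by array, and their ranges with and without replicate 4.

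The 8 genes fell into 3 patterns across the arrays, and none of them separated medulla from cortex. Gpx2, Hmox1, Txnrd1 and Srxn1 had their highest value of each region on replicate 4. Gclc and Gclm had their lowest value of each region on that replicate. Gpx3 and Nqo1 ranged over at most 1.27-fold between the arrays of a region. This grouping describes the values and was not tested.

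Glutamate-cysteine ligase was represented by both of its subunit genes. Gclc (chromosome 8, 87510251 to 87548896 in GRCr8) measured 11.64, 11.60, 11.56 and 11.16 log2 intensity on medulla replicates 1 to 4, against 11.73, 11.66, 11.58 and 10.79 on cortex replicates 1 to 4. The regions overlapped, and replicate 4 was the low array in both. Gclm (chromosome 2, 213032135 to 213052192) measured 11.01, 10.94, 11.07 and 10.81 in medulla, against 11.12, 11.08, 11.03 and 10.27 in cortex. It too was lowest on replicate 4, by far more in cortex than in medulla. The range between the highest and the lowest array was 1.40-fold in medulla and 1.92-fold in cortex for Gclc, and 1.20-fold in medulla and 1.80-fold in cortex for Gclm, so neither gene reached 2-fold. After quantile normalization the medulla range of Gclm was 0.40 log2 units, against 0.26 in the deposited scaling. The highest signal of any probe set lay between 12.52 and 12.60 log2 units on the 8 arrays, so both genes are measured near the top of the scale.

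The subunit genes had nearly the same profile over the arrays. After each gene's region mean was subtracted, Gclc and Gclm differed from each other by a root mean square of 0.09 log2 units over the 8 arrays, the smallest such difference among the 28 pairs of members. The Gclc value minus the Gclm value was 0.63, 0.66, 0.49 and 0.35 log2 units on medulla replicates 1 to 4, against 0.61, 0.57, 0.54 and 0.52 on cortex replicates 1 to 4. The difference between the probe sets was therefore lowest on replicate 4 in both regions.

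Gpx2 had the widest spread of the 8 genes. It lies on chromosome 6 (101226745 to 101230033) and measured 6.18, 5.75, 6.22 and 8.45 log2 intensity on medulla replicates 1 to 4, against 5.68, 5.93, 6.57 and 8.98 on cortex replicates 1 to 4. Replicate 4 stood far above the other arrays of its region in both regions, while the remaining values overlapped. The replicate 4 value was between 4.66-fold and 6.49-fold above the other medulla arrays and between 5.30-fold and 9.83-fold above the other cortex arrays. Without replicate 4 the range was 0.48 log2 units in medulla and 0.89 in cortex, against 2.70 and 3.30 with it. Gpx3 (chromosome 10, 39529335 to 39537406) measured 11.07, 11.32, 11.13 and 11.16 in medulla, against 11.15, 11.37, 11.50 and 11.50 in cortex. Its 8 values stayed close together, over 1.19-fold in medulla and 1.27-fold in cortex. Like Gclc and Gclm it is measured near the top of the scale, and how far the small range depends on that was not tested.

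The thioredoxin arm was represented by Txnrd1, the cytosolic thioredoxin reductase, and Srxn1, the sulfiredoxin that restores overoxidised peroxiredoxins. Txnrd1 (chromosome 7, 22717620 to 22802553) measured 7.19, 7.37, 7.48 and 8.09 in medulla, against 7.32, 7.53, 7.64 and 8.41 in cortex. Replicate 4 was the highest array of each region, and the other 3 arrays of a region lay within 0.29 log2 units in medulla and 0.32 in cortex. The full range was 1.86-fold in medulla and 2.13-fold in cortex. Srxn1 (chromosome 3, 161064812 to 161070372) measured 5.02, 5.13, 5.10 and 5.39 in medulla, against 5.02, 5.12, 5.23 and 5.56 in cortex. It too was highest on replicate 4 in both regions, with a smaller range, 1.29-fold in medulla and 1.46-fold in cortex. Its values lay around the array medians, where dim signals limit the size of any fold.

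Hmox1 encodes heme oxygenase 1, which opens heme to biliverdin, iron and carbon monoxide, and Nqo1 encodes a quinone reductase that is widely used as a readout of NRF2. Hmox1 (chromosome 19, 13452365 to 13479823) measured 5.02, 5.14, 4.99 and 6.22 in medulla, against 4.96, 5.12, 5.12 and 6.42 in cortex. Without replicate 4 its range was 0.15 log2 units in medulla and 0.16 in cortex, close to the array medians, and on replicate 4 it stood at least 2.12-fold above each other medulla array and at least 2.46-fold above each other cortex array. Nqo1 (chromosome 19, 52205374 to 52220267) measured 5.68, 5.60, 5.55 and 5.69 in medulla, against 5.70, 5.38, 5.64 and 5.65 in cortex. The widest gap within a region was 0.32 log2 units, between cortex replicates 1 and 2, and replicate 4 lay among the other arrays or within 1.01-fold of the next.

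**Figure D1:**
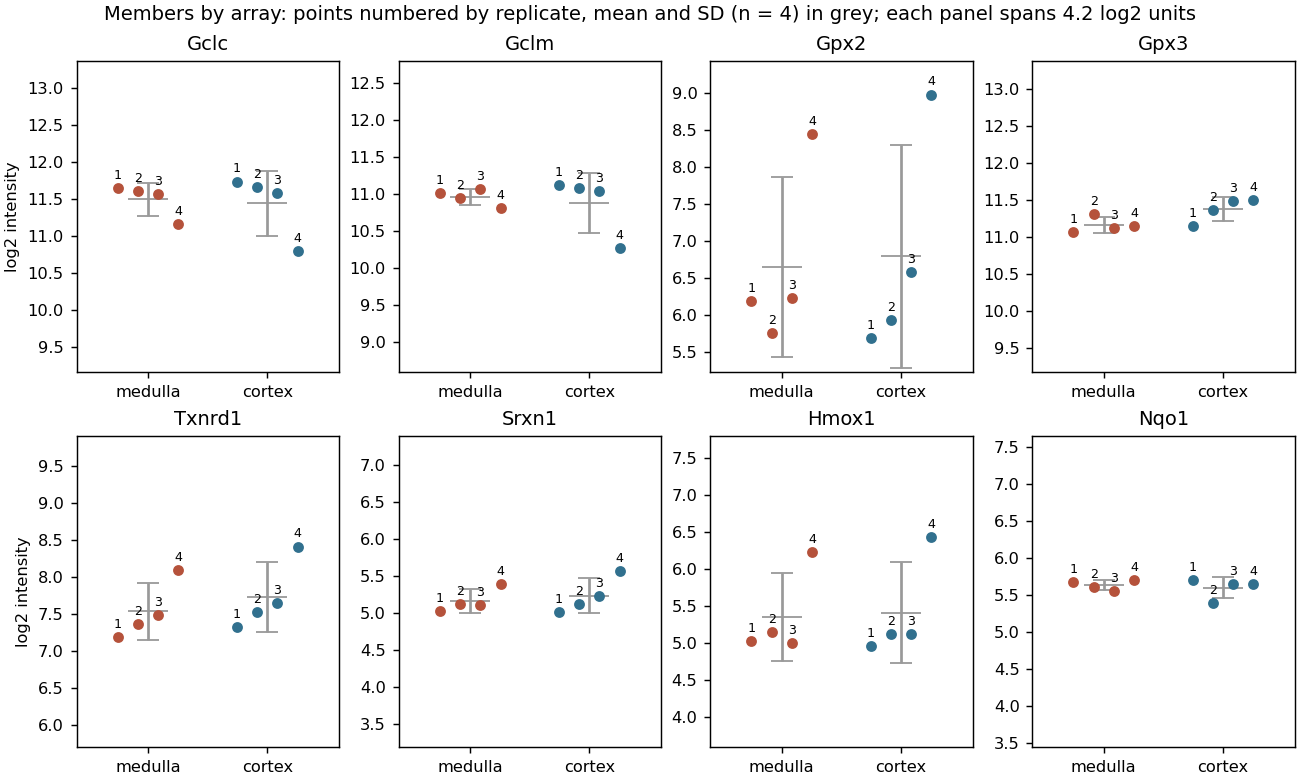
Log2 intensity (vertical axis) of the 8 genes on the 4 medulla arrays (left) and the 4 cortex arrays (right), with points numbered by replicate and the mean and SD in grey (n = 4). Replicate 4 is the highest point of each region for Gpx2, Hmox1, Txnrd1 and Srxn1 and the lowest for Gclc and Gclm, while Gpx3 and Nqo1 stay level.

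The first comparison the labels allow is medulla against cortex. limma's moderated test with Benjamini-Hochberg adjustment called 0 of the 8 genes, 0 higher and 0 lower, and it called 0 of 18166 genes in either direction, a background of 0%. limma with a trended robust prior and limma with array weights also called 0 of the 8. At an unadjusted p under 0.05, 0 of the 8 genes passed, against 5.35% of all genes. In 0 of the 8 genes did the medulla arrays all lie on 1 side of the cortex arrays, against 1.1% of all genes with medulla higher and 1.74% with medulla lower. The difference was negative in 5 of the 8, against 54.2% of all genes, and its median was -0.06 log2 units over the 8 genes and -0.01 over all genes.

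Gpx3 came closest to separating the regions, at 11.17 ± 0.11 log2 intensity in medulla and 11.38 ± 0.16 in cortex (SD, n = 4 each), a medulla minus cortex difference of -0.21 ± 0.09 (SE) with limma's adjusted p at 0.875. By the exact two-sided permutation test its unadjusted p was 0.0857, where the smallest p that 4 against 4 arrays allow is 0.0286. Its difference kept its sign with any 1 array left out, between -0.29 and -0.17. Genes of the proximal tubule, the source of plasma glutathione peroxidase, lay on the same side, with a negative difference in 8 of 8 marker genes. Their median difference was -0.45 log2 units, where 54.2% of all genes were negative with a median of -0.01. The summed intensity of these 8 markers overlapped between the regions. It was 6495, 7436, 5229 and 5260 units on medulla replicates 1 to 4, against 6177, 8030, 8630 and 7984 on cortex replicates 1 to 4. The part of these markers in the Gpx3 difference was not tested, and in pieces of tissue fewer cells of a type and less RNA per cell cannot be told apart.

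The other 7 differences were all smaller than their standard errors. Gpx2 averaged 6.65 ± 1.22 in medulla and 6.79 ± 1.51 in cortex (SD, n = 4 each), a difference of -0.14 ± 0.86 (SE). Hmox1 averaged 5.34 ± 0.59 in medulla and 5.40 ± 0.68 in cortex, a difference of -0.06 ± 0.40. Txnrd1 differed by -0.19 ± 0.27 and Srxn1 by -0.07 ± 0.13, while Gclc differed by 0.05 ± 0.22, Gclm by 0.08 ± 0.19 and Nqo1 by 0.04 ± 0.07. limma's adjusted p for these 7 lay between 0.945 and 0.988. Each of the 7 signs turned when single arrays were left out, most widely for Gpx2, which stood at -0.74 without medulla replicate 4 and at 0.59 without cortex replicate 4. With both replicate 4 arrays left out, a setting chosen after seeing the data, the differences were -0.0078 for Gpx2, -0.013 for Hmox1 and -0.15 for Txnrd1.

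**Figure D2:**
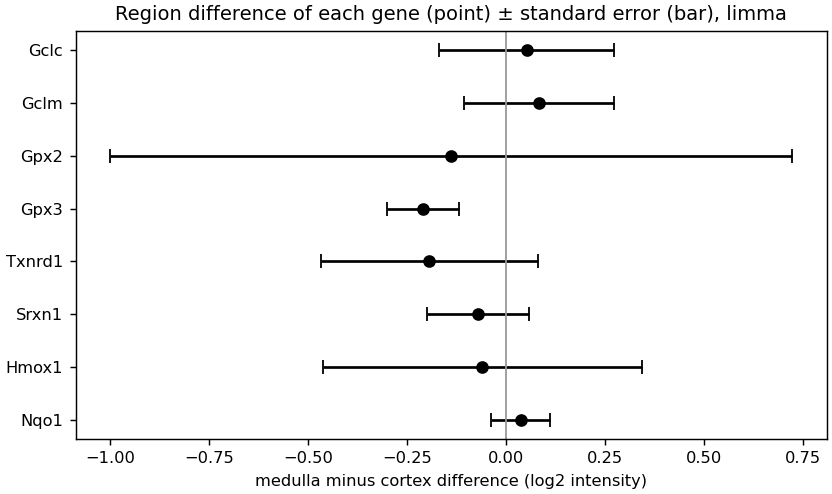
Medulla minus cortex difference in log2 intensity (horizontal axis) for each of the 8 genes, with limma's standard error as the bar. Gpx3 at -0.21 is the 1 gene whose bar does not reach 0, and its adjusted p was 0.875.

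The region labels themselves were checked with markers of other cells. Slc14a2, which encodes the urea transporter UT-A of the medullary collecting duct, measured 7.42, 6.15, 6.49 and 6.76 in medulla, against 5.88, 4.95, 5.05 and 4.80 in cortex, without overlap. The 5 genes of its list overlapped in sum between the regions, with sums of 699.8 to 2749 intensity units in medulla and 601.4 to 1395 in cortex, and 4 of the 5 had a positive difference. The podocyte list, with 2 of 4 genes measured, overlapped too, with sums of 359.5 to 651.2 in medulla and 466.5 to 722.6 in cortex. The proximal tubule phosphate transporter gene Slc34a1 overlapped between the regions, with 9.71 to 11.01 in medulla and 10.42 to 11.10 in cortex, so the medulla samples also carried proximal tubule RNA.

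The second comparison is between arrays of the same region, since the study picked genes that varied at least 2-fold in each region taken alone and retained those shared by the 2 regions. Which arrays it contrasted is not given in the labels, so the range between the highest and the lowest array is given. It reached 2-fold between medulla arrays in 2 of the 8 genes, against 3.8% of all genes, and between cortex arrays in 3 of the 8, against 3.6%. Gpx2 and Hmox1 passed in both regions, 2 of the 8, against 2.21% of all genes, and Txnrd1 passed in cortex alone. For Gpx2 and Hmox1, 3 of the 6 possible pairs of arrays in each region were at least 2-fold apart, and each of those pairs held replicate 4. The median range of the 8 genes was 0.42 log2 units in medulla and 0.90 in cortex, against 0.25 and 0.21 over all genes. Without medulla replicate 4, or without cortex replicate 4, 0 of the 8 genes passed in both regions.

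**Figure D3:**
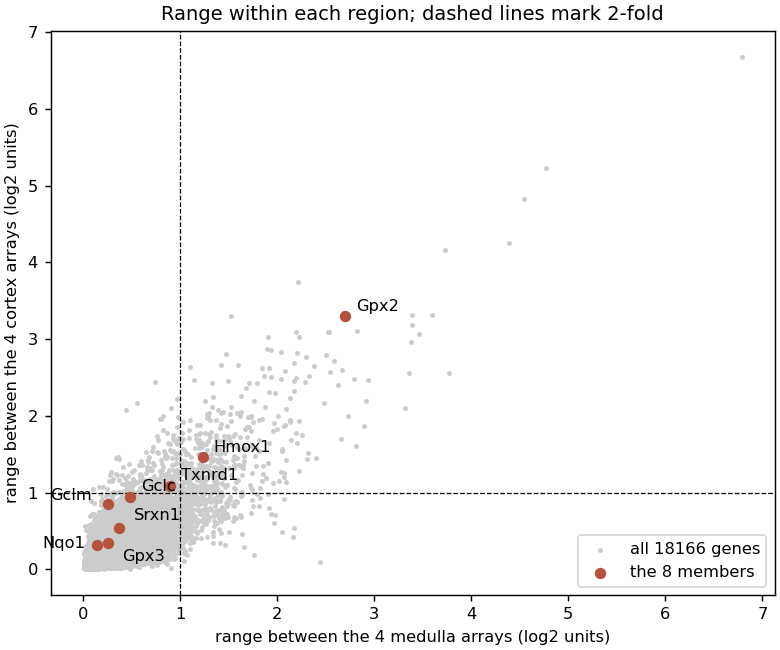
Range between the 4 arrays of a region in log2 units, medulla on the horizontal and cortex on the vertical axis, for all genes (grey) and the 8 genes (red), with dashed lines at 2-fold. Gpx2 and Hmox1 lie past both lines, Txnrd1 past the cortex line, and the other 5 inside both.

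Replicate 4 stood apart for many genes of the array, and the 8 genes are read against that. It was the highest array of both regions in 4 of the 8, against 17% of all genes, and the lowest of both in 2 of the 8, against 16%. It stood at least 2-fold above each other array in both regions in 2 of the 8, Gpx2 and Hmox1, against 0.38% of all genes. Set against the median of the other 3 arrays, replicate 4 was higher by 2.26 log2 units in medulla and 3.05 in cortex for Gpx2, by 1.20 and 1.30 for Hmox1, by 0.72 and 0.88 for Txnrd1 and by 0.29 and 0.44 for Srxn1. The same gap was -0.44 in medulla and -0.87 in cortex for Gclc, and -0.20 and -0.81 for Gclm. The gaps of the 2 regions were not compared by a test, because each region has 1 such array, and they were not compared over all genes. By the Dixon limit described further below, replicate 4 was set apart in 4.63% of all genes in cortex and 2.31% in medulla. By that limit cortex replicate 4 thus stood apart more often than medulla replicate 4 over the whole array. The limit sets a gap against the range and does not measure its width.

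Markers of other cells and of injury were summed on the same arrays. The tubular injury list, with 7 of 7 genes measured, summed to 1944, 1457, 6272 and 12014 intensity units on medulla replicates 1 to 4. On cortex replicates 1 to 4 it summed to 1681, 1349, 1941 and 10173. Of its 7 genes, 5 were highest on replicate 4 in both regions, beside 17% of all genes. Lcn2 and Krt20 of this list averaged below the lowest array median. Havcr1 of this list, which encodes kidney injury molecule 1, measured 4.54, 4.80, 8.95 and 11.32 log2 intensity in medulla, against 4.59, 5.15, 7.54 and 11.27 in cortex. The leukocyte and macrophage list, cells that also make heme oxygenase 1, had 9 of 9 genes measured and summed to 989.4, 825.1, 1523 and 1631 in medulla, against 1154, 813.0, 598.3 and 867.8 in cortex. It was highest on replicate 4 in medulla but on replicate 1 in cortex, and its members Cd163 and Itgam averaged below the lowest array median. The urothelium list, with 5 of 6 genes measured, summed to 440.8, 199.9, 239.0 and 199.0 in medulla, against 184.5, 169.3, 173.6 and 161.8 in cortex, and so was not raised on replicate 4. Markers of nephron segments did not all move alike on replicate 4. The proximal tubule list was not lowest there, at 5260 in medulla and 7984 in cortex, against lowest sums of 5229 and 6177. Of its 8 genes, 3 were highest on replicate 4 in both regions and 1 lowest, beside 17% and 16% of all genes. The podocyte list was lowest on replicate 4 in medulla, at 359.5, but not in cortex, at 541.4. The thick ascending limb list, with 4 of 4 genes, was lowest on replicate 4 of both regions, at 2982 in medulla and 2307 in cortex, against 5302 to 6317 on the other medulla arrays and 5128 to 6792 on the other cortex arrays. The collecting duct and inner medulla list, with 5 of 5 genes, was also lowest on replicate 4, with sums of 2749, 1770, 1253 and 699.8 in medulla, against 1395, 1302, 1140 and 601.4 in cortex. So was Slc4a1, the 1 of 6 erythrocyte genes measured, which intercalated cells also express, at 789.2, 444.8, 251.3 and 159.2 in medulla, against 364.1, 301.9, 304.0 and 134.6 in cortex. The part of these lists in the values of the 8 genes was not tested.

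The wider pathway was described with 7 lists that hold 79 genes, of which 69 were measured and 0 were called between the regions. These lists too were chosen with earlier results of these data known. The range reached 2-fold in both regions in 5 of the 69, or 7.25%, against 2.21% of all genes. Those 5 were Gss, Gsta2, Osgin1, Blvra and Akr1b8, and 4 of them were lowest on replicate 4 while Akr1b8 was highest there. Replicate 4 was the highest array of both regions in 23 of the 69, or 33.3%, against 17% of all genes, and the lowest of both in 16, or 23.2%, against 16%.

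None of the genes that control NRF2 reached a 2-fold range. They were 8 of 8 measured, with a median range of 0.39 log2 units in medulla and 0.37 in cortex, against 0.25 and 0.21 over all genes, and 5 of the 8 were highest on replicate 4 in both regions, beside the 17% of all genes. Nfe2l2 itself measured 8.93, 8.97, 9.16 and 9.34 in medulla, against 8.89, 8.89, 9.13 and 9.29 in cortex, with the same order of arrays in both regions over a range of 1.33-fold in medulla and 1.32-fold in cortex. Bach1, the repressor that competes for the antioxidant response element, ranged over 0.30 log2 units in medulla and 0.58 in cortex. Of the small MAF partner genes, Maff ranged over 0.44 log2 units in medulla and 0.90 in cortex, and Mafg over 0.43 and 0.34. The measurement is of RNA and does not show the amount or location of the NRF2 protein.

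Beyond the ligase, glutathione synthesis was represented by Gss, the synthetase of the second step. Gss measured 9.15, 9.24, 8.58 and 8.23 in medulla, against 9.18, 9.39, 9.10 and 8.35 in cortex, so it was lowest on replicate 4 in both regions, as Gclc and Gclm were. Of 11 measured genes of glutathione making and use, Gss was the 1 gene with a 2-fold range in both regions. The glutaredoxin gene Glrx ranged over 0.79 log2 units in medulla and 0.43 in cortex, the cytosolic peroxidase gene Gpx1 over 0.41 and 0.96, and Chac1, which encodes a glutathione-degrading enzyme, over 0.41 and 0.73.

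Glutathione S-transferases, which join glutathione to electrophiles, went both ways on replicate 4, with 4 of 14 measured genes highest and 5 lowest on it in both regions, beside 17% and 16% of all genes. Gsta2 measured 9.86, 10.11, 9.67 and 8.74 in medulla, against 10.05, 10.26, 10.18 and 9.21 in cortex. Gstp1, of the pi class, measured 8.61, 8.49, 7.89 and 8.90 in medulla, against 8.43, 8.50, 8.52 and 9.12 in cortex. The alpha-class gene Gsta2 was thus low and the pi-class gene high on the same arrays. Gsta3 ranged over 0.70 log2 units in medulla and 0.91 in cortex, and Gsta1 over 0.63 and 0.60. Related transferase genes are similar in sequence, and how far their probe sets share signal was not tested. The median medulla minus cortex difference of this list was -0.21 log2 units, with a negative value in 13 of 14, against -0.01 and 54.2% over all genes. The proximal tubule markers lay on the same side, at a median of -0.45, and their part in this was not tested.

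Of 12 measured genes of the thioredoxin and peroxiredoxin list, Osgin1 was the 1 gene with a 2-fold range in both regions. Osgin1, an oxidative stress-induced growth inhibitor gene and a known NRF2 target in human cells, measured 9.47, 9.46, 8.34 and 7.63 in medulla, against 9.66, 9.52, 9.37 and 7.03 in cortex. Its replicate 4 values were the lowest of both regions, opposite in side to Txnrd1 and Srxn1. The peroxiredoxin genes Prdx5 and Prdx4 and the thioredoxin inhibitor gene Txnip each ranged over at most 0.72 log2 units in either region. Genes of NADPH supply, which feed both reductase systems, had 0 of 4 measured genes past 2-fold. Among them the malic enzyme gene Me1 ranged over 0.66 log2 units in medulla and 0.87 in cortex, the isocitrate dehydrogenase gene Idh1 over 0.60 and 0.46, the transketolase gene Tkt over 0.42 and 0.61, and the transaldolase gene Taldo1 over 0.16 and 0.13.

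Heme breakdown continues from heme oxygenase to biliverdin reductase, and of the genes of these steps Hmox1 and Blvra lay on opposite sides on replicate 4. Blvra, the reductase that makes bilirubin, measured 8.52, 8.69, 8.15 and 7.31 in medulla, against 8.71, 8.69, 8.65 and 7.52 in cortex. It was lowest on the arrays where Hmox1 was highest. Of 9 measured genes of heme and iron handling it was the 1 gene with a 2-fold range in both regions. Among those 9, 2 were highest and 2 lowest on replicate 4 in both regions, beside 17% and 16% of all genes. The ferritin heavy chain gene Fth1 ranged over 0.34 log2 units in medulla and 0.44 in cortex, the iron exporter gene Slc40a1 over 0.59 and 0.64, and the heme carrier gene Hpx over 0.31 and 0.42.

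In the list of quinone, carbonyl and conjugate handling, Akr1b8 was the 1 of 11 measured genes with a 2-fold range in both regions. Akr1b8, an aldo-keto reductase that reduces reactive aldehydes, measured 6.33, 6.84, 7.02 and 7.92 in medulla, against 6.16, 7.09, 7.54 and 8.82 in cortex. Its order over the arrays was the same in both regions, highest on replicate 4. Nqo2, a quinone reductase related to Nqo1, measured 8.01, 8.07, 7.93 and 7.04 in medulla, against 8.05, 8.15, 8.05 and 7.31 in cortex. Nqo2 was thus low on replicate 4, where Nqo1 was level. The conjugate exporter gene Abcc3 ranged over 0.62 log2 units in medulla and 0.71 in cortex, and Ugdh, which makes the donor for glucuronidation, over 0.61 and 0.85, both with replicate 4 highest.

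**Figure D4:**
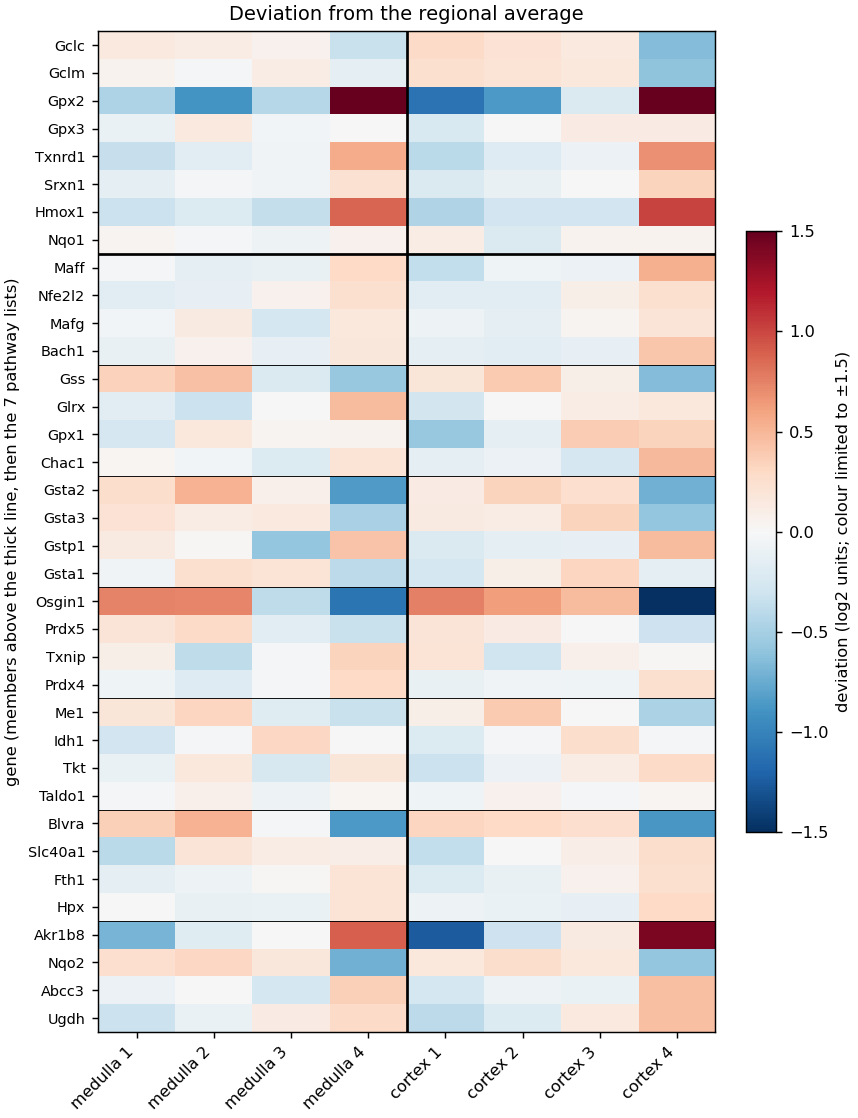
Deviation of each log2 value from its regional average on the 8 arrays (medulla left, cortex right), for the 8 genes above the thick line and up to 4 genes of each of 7 pathway lists beneath it. In both replicate 4 columns the reddest cells are Gpx2, Akr1b8 and Hmox1 and the bluest are Osgin1, Blvra and Gsta2.

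The genes whose profile was nearest to each wide-ranging member were found by the root mean square difference of log2 values over the 8 arrays, after each gene's region mean was subtracted. For Gpx2 they were Angptl4, a secreted inhibitor of lipoprotein lipase, at 0.13 log2 units, Mab21l3 at 0.20 and Tnfrsf12a, the receptor of the cytokine TWEAK, at 0.24. For Hmox1 they were the tight junction gene Cldn6 at 0.07, the actin-binding transgelin gene Tagln2 at 0.08 and Mybpc2, a myosin-binding protein gene, at 0.10. Gpx2 and Hmox1 differed from each other by 0.66 on this measure, Hmox1 and Txnrd1 by 0.21, and Txnrd1 and Srxn1 by 0.21. Gpx2 and Gclc were the members farthest apart, at 1.48. These are descriptions of profiles over the same 8 arrays.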

How the data were processed

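Total RNA from homogenised rat kidney was, per the labels' protocols, labelled as sense-strand DNA for whole-transcript arrays. For each array the authors deposited 1 linear intensity per probe set, produced by RMA in Affymetrix Expression Console according to the submitters' processing notes, with versions not stated. The values were logged (log2) with no pseudocount.

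Of 29870 probe sets, 18511 have 1 gene symbol in the platform annotation, 575 have several and 10784 are unnamed here. For 291 genes with several probe sets the brightest by mean was kept, which left 18166 genes with no filter on dim signal. Any 2 arrays had at most 1 value in common, so no array's values repeat those of another.

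Medulla was compared with cortex by limma 3.58.1 in R 4.3.3 over all genes (a call is an adjusted p under 0.05 with a 2-fold difference), and by exact permutation (scipy 1.17.1) for single genes. The fit was tested on simulated data with independent noise on each array. It called 34% of the genes given a region difference of 1 log2 unit and 92% of those given 2 log2 units. A count of 0 called therefore does not exclude differences near 2-fold. The shares were not worked out apart for genes that vary widely between arrays. Gpx2 and Hmox1 vary in this way, with standard errors of 0.86 and 0.40 log2 units. For such genes the count does not exclude larger differences either. In the arrays themselves Slc14a2 differed by 1.53 log2 units without overlap, and limma's adjusted p was 0.875. Ranges are the highest minus the lowest log2 value of a region's 4 arrays. The number of arrays limits the precision, and detection calls were not used. Alternatives covered scaling, probe sets, dim genes, limma's variance model, array weights, thresholds and each array left out.

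The members and lists were chosen with earlier results of these data known. Named genes are the 8 members, up to 4 genes per pathway list with the largest smaller regional range, and the 3 nearest profiles for each member past 2-fold in both regions. Marker genes (Slc14a2, Slc34a1, Havcr1 and list sums) appear only beside results. Promoters are from RefSeq, assembly GRCr8. Figures were drawn with matplotlib 3.10.9.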

Additional observations from a re-analysis of the deposited data

Results flagged for a closer look

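In groups of 4 arrays, 1 array was set apart where its gap to the nearest other array divided by the group's range exceeded Dixon's 95% critical value, which chance passes in about 1 of 20 groups. Of the 8 genes in both regions, 16 groups, 5 were set apart, all by replicate 4. They were 2 of the 8 in medulla, where 6.45% of all 18166 genes were set apart and 2.31% by replicate 4, and 3 of the 8 in cortex, where 7.88% were set apart and 4.63% by replicate 4. Hmox1 was high on medulla replicate 4 at 6.22 log2 intensity and on cortex replicate 4 at 6.42. Gclc was low on medulla replicate 4 at 11.16 and on cortex replicate 4 at 10.79, and Gclm was low on cortex replicate 4 at 10.27. Gpx2, whose range was wider, was not set apart by this limit, because its other arrays differed more among themselves.

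Over 45 genes, the 8 with the named pathway, profile and marker genes, 20 of 90 groups were set apart. The pathway genes were picked for their ranges and the profile genes for likeness to Gpx2 or Hmox1. This count therefore cannot be read against the rate expected by chance or the shares over all genes. Among pathway genes, medulla replicate 4 was low for Gsta3 at 5.06 and Nqo2 at 7.04. Medulla replicate 1 was low for Slc40a1 at 6.90, the 1 case that was not on a replicate 4 array. Cortex replicate 4 was high for Bach1 at 7.45, Gstp1 at 9.12, Prdx4 at 5.71 and Hpx at 5.17, and low for Osgin1 at 7.03, Blvra at 7.52 and Nqo2 at 7.31. Among the genes nearest in profile, which were chosen for that profile, Tagln2 at 9.85 was high on medulla replicate 4, Tnfrsf12a at 8.64 and Mybpc2 at 6.68 on cortex replicate 4, and Cldn6 on medulla replicate 4 at 7.13 and on cortex replicate 4 at 7.52.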

How the results depend on the processing

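No paired analysis was possible because the labels number the arrays from 1 to 8 over both regions and tie no medulla array to a cortex array. limma called 0 of the 8 genes between the regions under every alternative run, and the lowest adjusted p of their differences was 0.490. With a 2-fold difference and no test, 16 of all genes passed and 0 of the 8. With any 1 array left out the differences lay between -0.74 and 0.59 for Gpx2, -0.35 and 0.28 for Hmox1, -0.38 and 0.035 for Txnrd1, -0.15 and 0.040 for Srxn1, -0.16 and 0.16 for Gclc, -0.12 and 0.16 for Gclm, and -0.034 and 0.073 for Nqo1. With array weights they were 0.014 for Gpx2, -0.0066 for Gclc and -0.018 for Gclm. With both replicate 4 arrays left out, chosen after seeing the data, they were -0.054 for Gclc and -0.070 for Gclm. The cause of these turned signs was not tested.

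The count of genes with a 2-fold range was 691 in medulla, 654 in cortex and 402 in both. At 1.5-fold it was 2738, 2063 and 1475, and at 3-fold 157, 186 and 96, with 1 of the 8 genes, Gpx2, past 3-fold in both regions. With each array left out in turn it lay between 170 and 691 in medulla, 145 and 654 in cortex, and 84 and 379 in both, with 0 to 2 of the 8 genes. Without both replicate 4 arrays it was 170, 145 and 45, with 0 of the 8. Normalization, probe set choice and the filter on dim genes kept each of these counts within 1.5 times. Signals near the array medians, as for Hmox1, Srxn1 and Nqo1, limit the size of a fold.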
